A study of Mus musculus with 8 samples.

Results

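The cytosolic ribosomal protein genes code for the proteins of the large (60S) and small (40S) subunits of the ribosome in the cytosol. Members were all protein-coding mouse genes whose symbol is Rpl or Rps followed by a number with an optional letter, together with Rpsa, Rplp0, Rplp1 and Rplp2, and without the Rps6k kinases and names ending in -like or -ps. This gave 76 genes of 21887 protein-coding genes, 46 of the 60S subunit and 30 of the 40S subunit. Each gene was measured by the sum of all regions that overlapped 1000 bp on either side of one of its annotated ends. A region was present there for 73 of the 76 members, and all of these were tested.

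The assay was ATAC-seq, in which a transposase cuts open chromatin and the cut sites are sequenced. The cells were type 1 conventional dendritic cells (cDC1s), which take up antigen and present it to CD8 T cells, sorted out of tumours grown from B16-OVA, melanoma cells that make ovalbumin. All animals were labelled wild type, and 4 libraries were made from tumours 7 days after inoculation and 4 from tumours 21 days after it. Both groups came from tumours, so no library shows cDC1s of a healthy tissue, and the labels do not say whether animals were pooled for a library or whether the libraries came from separate animals. The p-values therefore measure the spread between these libraries, which may be technical.

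Ribosomal proteins are needed by every growing cell in nearly equal amounts, and their genes are among the most strongly transcribed in the genome. In mammals their promoters usually lack a TATA box, often carry sites for ETS family factors such as GABP and for SP1 and YY1, and commonly start transcription at a C inside a run of pyrimidines. That run becomes the 5′ terminal oligopyrimidine (TOP) tract of the mRNA, through which the kinase complex mTORC1 controls translation of these mRNAs, and dendritic cells change their rate of protein synthesis when they mature.

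The promoters of the members at which the clearest losses of accessibility were found are printed first, so that the values can be read against the sequence. Promoters were matched by symbol in a RefSeq table of GRCm38.p6, which held 56 of the 76 members. Each line shows 80 bases before the listed start and the first 10 bases of the transcript, 5′ to 3′ on the strand of the gene. Capitals mark a motif match on either strand (CCGGAAG or its reverse complement CTTCCGG for ETS and GABP, GGGCGG or CCGCCC for SP1, ATGGCGG for YY1, CACGTG for an E-box, TATAAA for a TATA box) and, near the end of the line, a run of 5 or more pyrimidines from the first transcribed base on. The first 7 are the members with a placed start that had the smallest p among those lower at day 21.
Rplp2: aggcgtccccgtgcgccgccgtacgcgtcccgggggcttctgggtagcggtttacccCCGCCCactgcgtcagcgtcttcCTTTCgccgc
Rpl13a: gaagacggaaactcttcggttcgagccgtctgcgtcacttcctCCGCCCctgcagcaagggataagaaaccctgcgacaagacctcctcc
Rps26: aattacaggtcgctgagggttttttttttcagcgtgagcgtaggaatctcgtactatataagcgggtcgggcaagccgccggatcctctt
Rps12: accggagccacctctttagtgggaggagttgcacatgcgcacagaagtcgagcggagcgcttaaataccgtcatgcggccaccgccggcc
Rps10: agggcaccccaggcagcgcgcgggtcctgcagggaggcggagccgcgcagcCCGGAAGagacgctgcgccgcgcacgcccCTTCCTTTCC
Rpl10a: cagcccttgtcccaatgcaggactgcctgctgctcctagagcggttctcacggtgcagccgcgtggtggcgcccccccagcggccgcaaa
Rps16: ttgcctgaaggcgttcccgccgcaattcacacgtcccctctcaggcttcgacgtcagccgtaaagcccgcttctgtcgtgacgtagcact
The next 3 belong to members that did not pass the test, Rpl14, Rpl15 and Rps6, and all of them open with a pyrimidine run. Rps6 was listed by name, and Rpl14 and Rpl15 were chosen after their values were seen. Other members that did not pass, such as Rpl10, Rpl11 and Rps19, have no run at the start.
Rpl14: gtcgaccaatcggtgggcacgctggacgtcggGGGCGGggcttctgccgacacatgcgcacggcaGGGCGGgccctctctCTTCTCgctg
Rpl15: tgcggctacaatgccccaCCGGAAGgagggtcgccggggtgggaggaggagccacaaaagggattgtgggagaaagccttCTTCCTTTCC
Rps6: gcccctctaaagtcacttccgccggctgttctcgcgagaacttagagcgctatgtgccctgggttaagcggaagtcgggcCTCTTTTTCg
Rplp2 lies at chr7:141447571-141447660 (forward strand), Rpl13a at chr7:45128736-45128825 (reverse strand), Rps26 at chr10:128626497-128626586 (reverse strand), Rps12 at chr10:23787200-23787289 (reverse strand), Rps10 at chr17:27635235-27635324 (reverse strand), Rpl10a at chr17:28328391-28328480 (forward strand), Rps16 at chr7:28350609-28350698 (forward strand), Rpl14 at chr9:120571437-120571526 (forward strand), Rpl15 at chr14:18270977-18271066 (reverse strand) and Rps6 at chr4:86857358-86857447 (reverse strand), all in GRCm38.p6. Among the 7 lower members, Rplp2 and Rps10 have the pyrimidine run at the listed start itself. Rpl13a and Rps26 have a C followed by 4 pyrimidines that begins within 5 bases of it, and Rps12, Rpl10a and Rps16 have neither. The run is found on both sides of the test.

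Motif letters were counted over the whole listed promoter, 250 bases before to 50 bases after the start, on both strands; none of these motifs contains another. The ETS and GABP letters were found in 22 of 56 members (39.3%), against 12.1% of all 17492 promoters in the table and 18.9% of the 9855 whose start lay under a region of these data. The YY1 letters were found in 9 members (16.1%, against 5.46% and 8.41%). The SP1 letters were found in 33 members (58.9%), above the 47.1% of all promoters and below the 67.7% of those under a region. A C followed by 4 pyrimidines began exactly at the listed start in 12 members (21.4%), against 2.2% of all promoters and 2.24% of those under a region. Within 5 bases of the listed start it began in 26 members (46.4%), against 18.8% of all promoters and 20.2% of those under a region. The first transcribed base was C in 19 of 56 members, while it was C in 13.7% of all promoters. E-box letters (8.93% of members, 7.89% of all promoters) and TATA box letters (8.93% and 13.1%) were about as frequent in members as elsewhere.

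**Figure D1:**
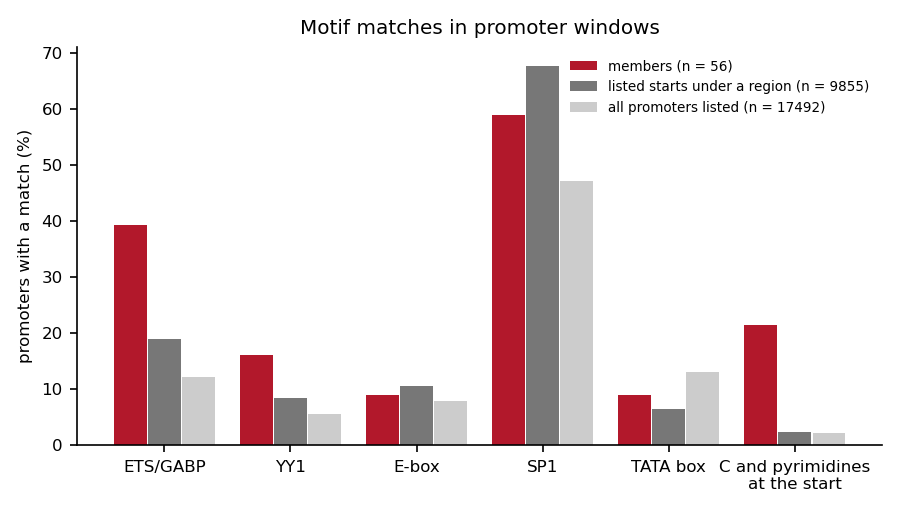
Share of promoters (%, vertical axis) that hold each motif, for 56 members, for 9855 listed starts under a region of these data and for all 17492 promoters of the table. The bar of the members is the highest of the 3 for the ETS and GABP letters (39.3%), the YY1 letters (16.1%) and the pyrimidine run at the start (21.4%), and lies between the other bars for SP1, the E-box and the TATA box.

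Members with the ETS and GABP letters had a median log2 fold change at gene ends of -0.14 and members without them -0.11, and the values were -0.11 and -0.14 for members with and without the pyrimidine run at the start. The widest gap among the motifs searched was that of the SP1 letters, with a median of -0.11 for members with them and -0.20 for members without. These medians were not tested against each other. A match is a description of the letters in this window and does not show that a factor binds there.

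The libraries of day 7 held 9440223 to 16063736 counts and those of day 21 held 14021151 to 27737040, and the common biological coefficient of variation over regions was 0.133. Pairs of libraries correlated with r between 0.884 and 0.959. Of 14 cDC1 markers, 13 had a region at a gene end, and Itgae, which encodes CD103, had none. Their summed levels were 549 to 579 CPM (counts relative to the TMM-scaled library total) at day 7 and 562 to 606 CPM at day 21. Regions at gene ends were also found for 6 of 8 melanoma genes (165 to 178 CPM at day 7, 162 to 174 CPM at day 21, with none at Tyr and Slc45a2), for all 12 macrophage and monocyte genes (62.1 to 68.6 and 67.9 to 75.4 CPM) and for 9 of 12 T and NK cell genes (82.2 to 91.7 and 83.4 to 96.6 CPM, with none at Trac, Lck and Ncr1). The 8 cDC2 genes all had one (141 to 158 and 150 to 174 CPM), the 3 pDC genes with one summed to 72.7 to 79.0 and 66.2 to 69.8 CPM, and the other lists (B cell, neutrophil, stroma and endothelium) to at most 50.0 CPM. The part of these cells in the results for the ribosomal protein genes was not tested.

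The 73 tested members had counts at their gene ends in all 8 libraries. Divided by the length of the regions that were summed, the members had a median level of 32.8 CPM per kb, against 24.4 CPM per kb over all 13572 gene ends tested, and they ranged from 9.29 to 100.7 CPM per kb. The 106 distinct regions at their ends held 0.295%, 0.306%, 0.296% and 0.294% of all counts in the 4 libraries of day 7 (mean 0.297% ± 0.00543, SD). In the 4 libraries of day 21 they held 0.269%, 0.279%, 0.279% and 0.266% (mean 0.274% ± 0.0068, SD). Every library of day 21 lay below every library of day 7, with a ratio of means of 0.92. Set against the counts at all gene ends instead of all counts, the ratio was 0.976, nearer to 1.

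Accessibility at the ribosomal protein genes was lower at day 21 for 24 members and higher for 2, Rpl4 and Rps14, while 47 did not pass (edgeR quasi-likelihood test, Benjamini-Hochberg adjusted p under 0.05 over all 13572 gene ends). The changes were small, from a log2 fold change of -0.42 at Rps10 to 0.24 at Rpl4, with a median of -0.13. Among all gene ends 24.6% were lower and 6.71% higher, with a median of -0.09, beside 32.9% and 2.74% of the members. Against the 4349 gene ends of like level (log2 CPM between 4.53 and 5.67, the quartiles of the members), of which 32.0% were lower and 6.12% higher with a median of -0.11, the share of members that was lower is close to the background. Of the 37 members inside that band, 13 were lower (35.1%) and 1 higher (2.7%). A fold change below 0 was found for 63 of the 73 members, and for 9130 of the 13572 gene ends. Libraries were made from many cells at once, so a change in every cell and a change in the share of cells that are open at a gene cannot be told apart.

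**Figure D2:**
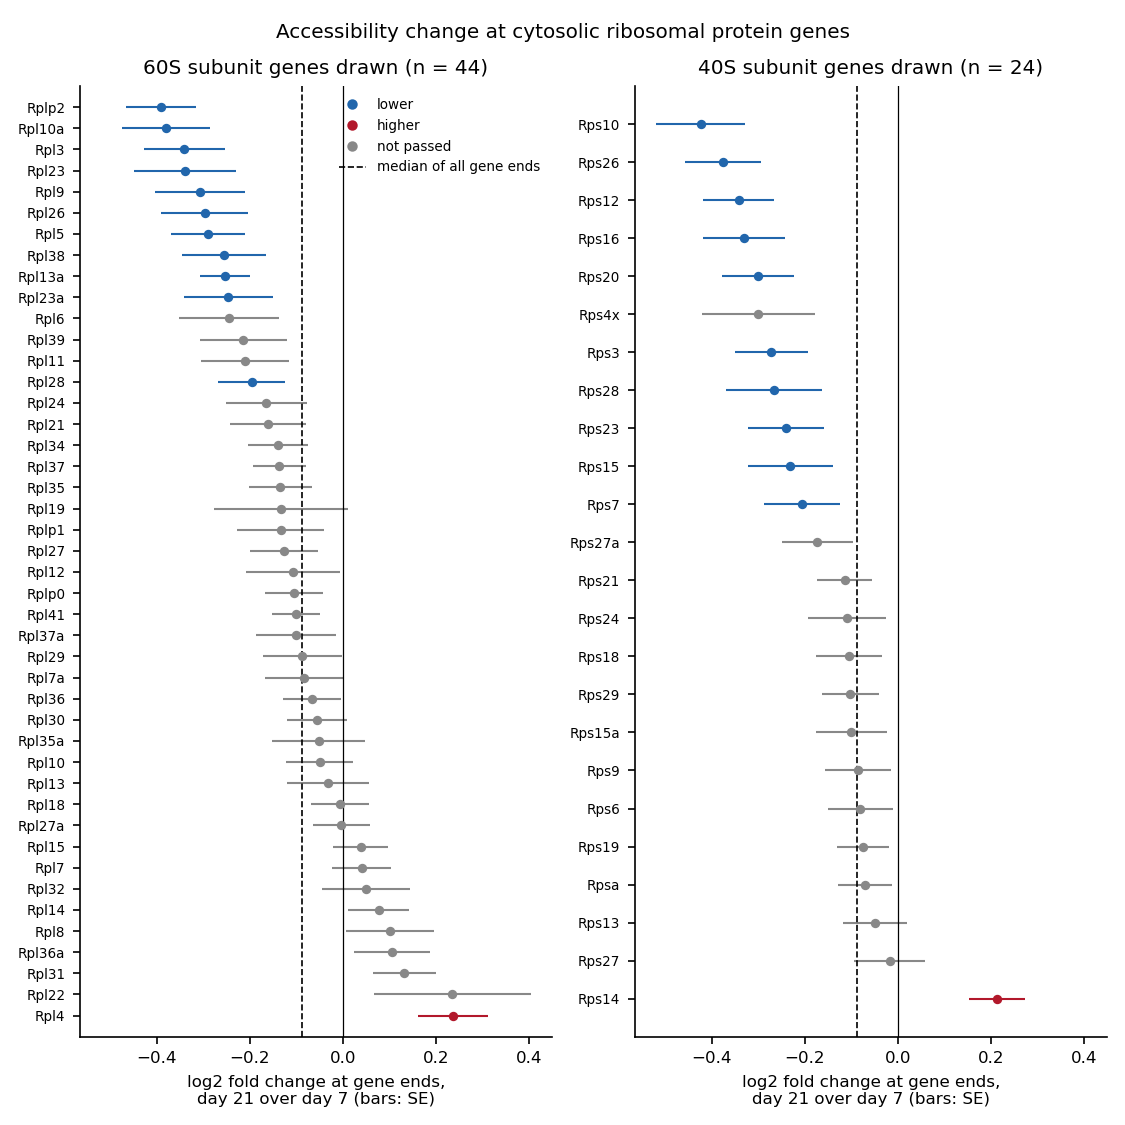
Log2 fold change of day 21 over day 7 at gene ends (horizontal axis; bars are standard errors) for 44 of the 45 tested members of the 60S subunit and 24 of the 28 of the 40S subunit, in order of size, with the median of all gene ends as a dashed line. Most members lie left of 0, 21 of those drawn passed the test as lower, and Rpl4 and Rps14 passed as higher.

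The scaling of the libraries bears on this count. When each library was scaled along the level of accessibility (trended offsets) in place of 1 factor per library, 10 members were lower and 6 higher (13.7% and 8.22%), against 12.1% and 12.0% of all gene ends, and the members' median moved to -0.04 and that of all gene ends to -0.004. All 10 were among the 24 of the test above, Rpl3, Rpl10a, Rpl13a, Rplp2, Rps10, Rps12, Rps16 and Rps26 among them. The 6 higher members under that scaling were Rpl4, Rps14, Rpl14, Rpl15, Rpl31 and Rpl36a. Without replicate 4 of day 21, the deepest library, 14 members were lower. The share of all gene ends lower in that fit is not given here, so the drop cannot be read as particular to the members.

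A count that uses no model gave a like picture: 18 members had all 4 libraries of day 21 below all 4 of day 7 (24.7%, against 20.6% of all gene ends) and 3 had them all above (4.11%, against 5.95%). The comparison by level also showed how the members lie in the range of gene ends. Of the 29 members between log2 CPM 4 and 5, 13 were lower (44.8%, against 26.7% of 3112 gene ends in that band), whereas of the 27 between 5 and 6, 7 were lower (25.9%, against 34.0% of 3839 gene ends).

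**Figure D3:**
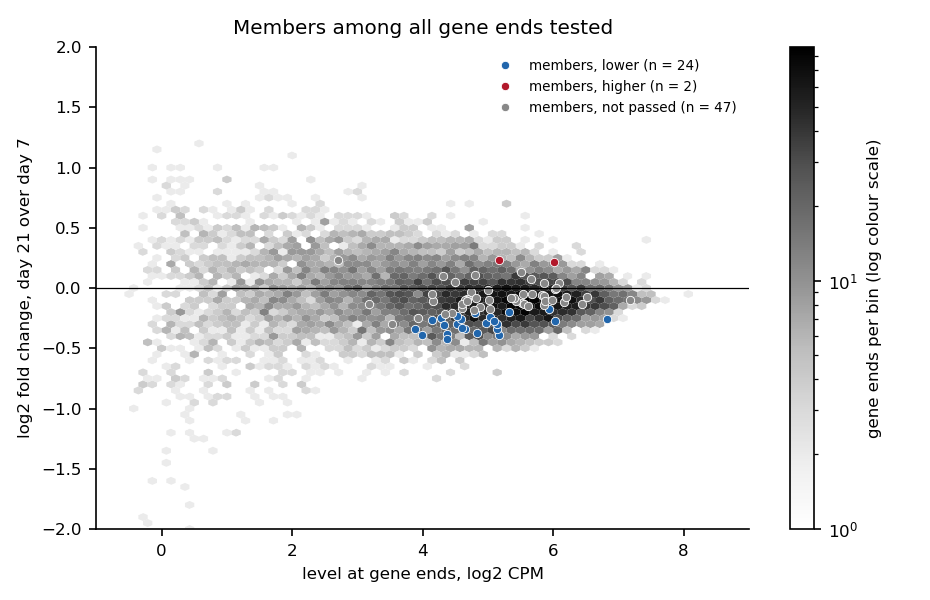
Log2 fold change of day 21 over day 7 (vertical axis) against the level at gene ends in log2 CPM (horizontal axis) for all gene ends tested (grey, darker where more gene ends fall, log colour scale; points beyond 2 in either direction are not drawn) and for the 73 members (coloured by the test). The lower members lie mostly at middle levels and inside the cloud of all gene ends.

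Of the 3 stalk proteins, Rplp2 passed the test. Rplp2, an acidic protein of the stalk that recruits elongation factors to the large subunit, had 35.8, 43.9, 43.9 and 40.5 CPM at its gene ends in replicates 1 to 4 of day 7 and 30.6, 30.98, 33.7 and 29.7 CPM at day 21. Every library of day 21 was below every one of day 7, and Rplp2 fell by 0.39 on the log2 scale (SE 0.0760, edgeR adjusted p = 5.88e-05), the smallest p of all members. Its region is shared with the gene Pidd1. Rplp0, the base of the stalk, had 62.96, 61.9, 60.6 and 57.2 CPM at day 7 and 56.5, 59.3, 57.8 and 52.1 CPM at day 21, with a log2 fold change of -0.11 (SE 0.0629) that did not pass (edgeR adjusted p = 0.20). Rplp1, the partner of Rplp2, had 20.6, 31.8, 24.96 and 24.9 CPM and 21.7, 23.7, 24.6 and 22.5 CPM, and its groups overlapped (log2 fold change -0.13, edgeR adjusted p = 0.283).

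Of the other large-subunit genes, Rpl13a and Rpl10a had clear losses. Rpl13a, known also for its part in silencing inflammatory mRNAs after interferon gamma, had 119, 132, 125 and 118 CPM at day 7 and 105, 104, 105 and 100.2 CPM at day 21. One of its regions was also counted for another gene. Every library of day 21 lay lower than any of day 7, and Rpl13a fell by 0.25 (log2, SE 0.0534, edgeR adjusted p = 0.000191). Rpl10a had 22.4, 25.8, 24.3 and 22.2 CPM and 17.7, 19.9, 16.7 and 18.2 CPM, again without overlap, and fell by 0.38 (log2, SE 0.0939, adjusted p = 0.00128).

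Rpl3, which lies close to the peptidyl transferase centre, had 29.8, 30.3, 26.1 and 26.8 CPM at day 7 and 20.7, 24.1, 23.7 and 20.6 CPM at day 21, and fell by 0.34 (log2, SE 0.0874, edgeR adjusted p = 0.00188). Its groups did not overlap. Rpl5 and Rpl11 bind the 5S rRNA together and, when free of ribosomes, hold back the p53 inhibitor MDM2. Rpl5 had 32.8, 35.3, 35.2 and 35.2 CPM at day 7 and 24.8, 29.0, 31.3 and 28.1 CPM at day 21 and fell by 0.29 (log2, SE 0.0794, adjusted p = 0.00358), while Rpl11 had 20.4, 25.4, 23.4 and 24.7 CPM and 17.3, 22.3, 19.9 and 21.2 CPM with overlapping groups (log2 fold change -0.21, SE 0.0942, adjusted p = 0.0781). The loss at Rpl5 did not pass with trended offsets (edgeR adjusted p = 0.0622), and Rpl11 passed without replicate 1 of day 7 (0.0296) or replicate 2 of day 21 (0.0440).

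In the small subunit, the largest fall was at Rps10, a protein near the mRNA entry that is ubiquitylated when ribosomes collide. Rps10 had 25.7, 22.3, 24.4 and 23.2 CPM at day 7 and 17.5, 17.6, 20.7 and 15.9 CPM at day 21, and fell by 0.42 (log2, SE 0.0955, edgeR adjusted p = 0.000459). Its days did not overlap. Rps26, which lines the mRNA exit channel, had 32.3, 33.99, 33.1 and 30.5 CPM and 26.02, 23.9, 26.6 and 23.4 CPM, without overlap, and fell by 0.38 (log2, SE 0.0814, adjusted p = 0.00027). Rps12 had 42.8, 41.4, 37.02 and 37.1 CPM and 30.4, 29.0, 33.8 and 31.3 CPM, also without overlap, and fell by 0.34 (log2, SE 0.0760, adjusted p = 0.000382).

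Rps16, of the head of the small subunit, had 24.9, 28.8, 28.7 and 26.97 CPM at day 7 and 20.3, 21.1, 24.6 and 20.9 CPM at day 21, and its lowest library of day 7 lay just above its highest of day 21 (fell by 0.33 on the log2 scale, SE 0.0883, edgeR adjusted p = 0.00281). Rps20 had 41.9, 40.7, 36.5 and 36.7 CPM and 29.6, 36.6, 30.6 and 29.6 CPM (fell by 0.30, SE 0.0779, adjusted p = 0.00207). Replicate 2 of day 21 reached into the range of day 7, and the call was lost with trended offsets (adjusted p = 0.0509). Rps3, a protein of the mRNA entry, had 33.6, 44.1, 35.6 and 37.4 CPM and 28.8, 32.97, 32.1 and 30.3 CPM and fell by 0.27 (log2, SE 0.0787, adjusted p = 0.00580). Without replicate 2 of day 7, its highest library, that adjusted p was 0.0601, and with trended offsets 0.0984.

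Among the remaining lower members were Rpl9, Rpl23, Rpl23a, Rpl26, Rpl28, Rpl38, Rps7, Rps15, Rps23 and Rps28. These fell by 0.20 (Rpl28) to 0.34 (Rpl23) on the log2 scale, with edgeR adjusted p from 0.0110 (Rpl9) to 0.0472 (Rps7). For Rpl23 the call was lost without replicate 1 of day 21 (adjusted p = 0.0667), without replicate 3 of day 7 (0.0582) and with trended offsets (0.0504).

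Several much-studied members did not pass. Rps6, the target of the S6 kinases, had 45.5, 42.8, 40.9 and 43.7 CPM at day 7 and 39.2, 44.6, 39.7 and 40.2 CPM at day 21 (log2 fold change -0.08, SE 0.0702, edgeR adjusted p = 0.401). Its groups overlapped. Rps19, a frequent target of mutation in Diamond-Blackfan anaemia, had 94.3, 95.3, 95.9 and 92.3 CPM and 85.8, 89.9, 96.8 and 85.8 CPM (log2 fold change -0.08, SE 0.0558, adjusted p = 0.310). Rpl10, which joins the large subunit late in its assembly, had 52.99, 44.3, 56.7 and 52.6 CPM and 41.9, 52.9, 57.5 and 47.7 CPM, with a wide spread inside both days (log2 fold change -0.05, SE 0.0729, adjusted p = 0.638). Rps27a, made as a fusion to ubiquitin, had 33.4, 36.8, 35.2 and 33.6 CPM and 30.2, 33.4, 29.7 and 29.8 CPM (log2 fold change -0.17, SE 0.0769, adjusted p = 0.0762). The highest library of day 21 there met the lowest of day 7, and without that library the adjusted p was 0.0434.

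The highest summed level at gene ends, not corrected for the length of the regions, was found at Rpl41, the shortest ribosomal protein, with 147, 145, 153 and 155 CPM at day 7 and 135, 149, 145 and 132 CPM at day 21, and it did not pass (log2 fold change -0.10, edgeR adjusted p = 0.130). Its start window alone had 57.98, 56.8, 57.0 and 60.6 CPM and 48.5, 50.4, 51.9 and 45.6 CPM, without overlap, and was lower (log2 fold change -0.25, SE 0.0647, adjusted p = 0.00200), while the region at its far end, shared like the start with Zc3h10, did not pass (log2 fold change -0.02, adjusted p = 0.883). After Rpl41 in summed level, Rpl13a, Rps19, Rpl37 and Rpsa followed. Rpl37 had 86.2, 93.2, 94.5 and 88.9 CPM and 80.2, 86.8, 86.0 and 77.1 CPM and just missed the threshold (log2 fold change -0.14, SE 0.0570, adjusted p = 0.0585). Rpl37 did pass under 7 alternatives, among them limma-voom (adjusted p = 0.0467). The lowest summed levels among tested members were at Rpl22, Rpl19, Rps4x, Rpl23 and Rpl6. Rps4x had 13.5, 12.8, 10.6 and 14.2 CPM and 9.77, 10.5, 10.4 and 10.8 CPM (log2 fold change -0.30, SE 0.122, adjusted p = 0.0509), and Rpl6 had 13.5, 17.0, 17.5 and 18.02 CPM and 13.9, 13.7, 14.6 and 13.6 CPM (log2 fold change -0.25, SE 0.108, adjusted p = 0.0739). Both overlapped between days. Rpl6 passed without replicate 1 of day 7 (adjusted p = 0.0187), Rps4x without replicate 3 of day 7 (0.0246), and Rpl37 without replicate 1 of day 7 (0.0383) or without replicate 2 (0.0437) or 3 (0.0238) of day 21.

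The RefSeq promoter table gives strand and start for 56 members, which allowed the start to be separated from the other end of the gene. At start windows, 23 of 53 members tested were lower and 0 were higher in edgeR's test (43.4%), against 27.2% lower and 6.18% higher of 10206 genes. An unadjusted p under 0.05 was found for 28 of the 53 members and for 4399 of the 10206 genes. The median log2 fold change was -0.17 for members and -0.10 for all start windows. Of the 3502 start windows of like level (log2 CPM between 4.37 and 5.56), 33.6% were lower and 5.63% higher, with a median of -0.12. Inside that band, 13 of 27 members were lower (48.1%) and 0 higher. With trended offsets, 10 members were lower and 3 higher (18.9% and 5.66%), against 11.7% and 12.5% of all start windows. Without replicate 4 of day 21 or replicate 2 of day 7, 14 members were lower, and the share of all start windows in those fits is not given here.

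A larger share of the 40S genes than of the 60S genes was lower. At start windows 13 of 20 members of the 40S subunit were lower (65.0%, median -0.24) and 10 of 33 of the 60S subunit (30.3%, median -0.14). At gene ends it was 12 of 28 (42.9%) and 12 of 45 (26.7%). The difference between the subunits was not tested. The mitochondrial ribosome, a separate set of proteins built into the ribosome of that organelle, had 28 of 67 start windows lower and 2 higher (41.8% and 2.99%, median -0.19), so a share like that of the cytosolic members was also found there.

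**Figure D4:**
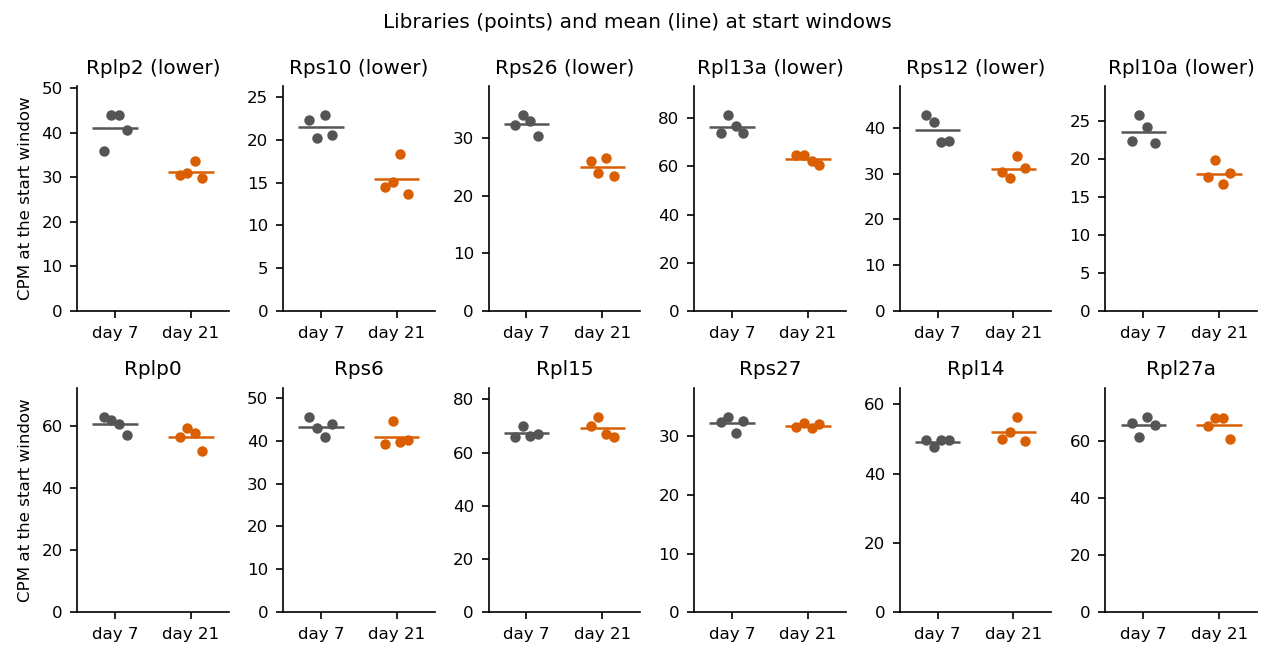
CPM at the start window (vertical axis, from 0) in each library (points) and the mean of a day (line) for 12 members, 6 that passed the test as lower (top) and 6 that did not pass (bottom). In the top row the days do not overlap, and in the bottom row they do.

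Regions over the start and other regions at the ends of the same genes gave different counts of calls, a difference that was not itself tested. Among single regions at gene ends that cover a listed start, 20 of 51 of the members were lower and 0 higher (edgeR, 39.2%, against 24.2% lower and 3.87% higher of 8165 such regions of all genes), with a median of -0.20 against -0.11. Among those that cover no listed start, 2 of 29 were lower and 4 higher (6.9% and 13.8%, against 7.23% and 10.2% of 6141), with a median of 0.23 against 0.05. Regions of the members were sorted by the member's own listed start, and those of all genes by the listed start of any gene. A member's region over a neighbour's start can thus count as covering none, so the classes are not fully alike. At far ends, the ends opposite the start, 3 of 16 members were higher and 2 lower (18.8% and 12.5%, against 9.9% and 8.73% of 2829 far ends). In 12 of the 15 members tested at both, the fold change at the far end lay above that at the start, and the same held for 59.3% of 2158 genes. Over the whole table, 28 of the 106 distinct regions of the members were lower and 6 higher, against 9.86% and 9.5% of 121865 regions, most of which lie away from gene ends. Without replicate 2 of day 7, 18 of the members' regions were lower, and the share of all regions in that fit is not given here.

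**Figure D5:**
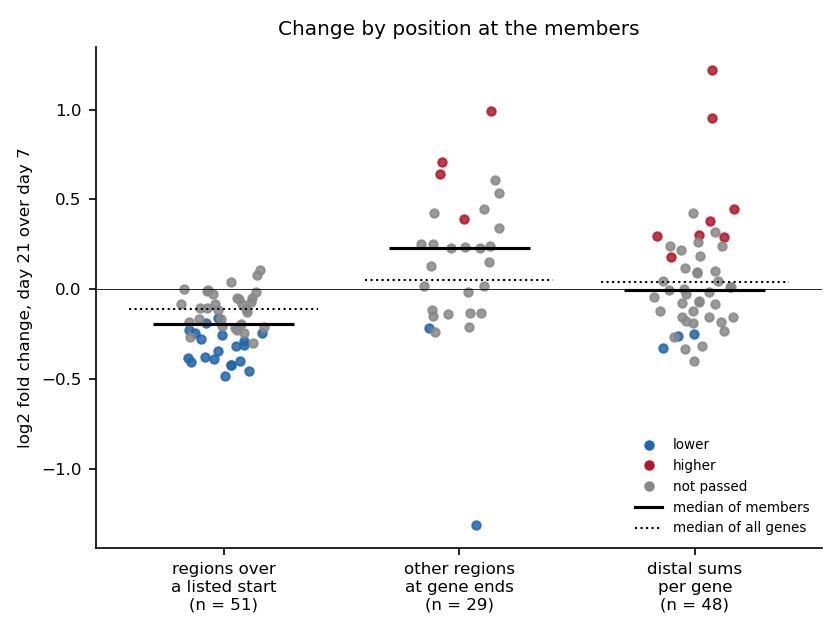
Log2 fold change of day 21 over day 7 (vertical axis) for 51 regions of the members over a listed start, 29 other regions at their gene ends and 48 sums of distal regions per gene (for Rpl19, Rpl22 and Rps2 with the region over the listed start); points are coloured by the test, solid lines are medians of the members and dotted lines medians of all genes. Regions over a start have no member that passed as higher and a median of -0.20, and the other regions at gene ends have a median of 0.23. Regions of the members were sorted by the member's own listed start, and those of all genes by any gene's listed start.

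In some genes the 2 kinds of region differed in direction. At Rpl26, which sits near the exit of the peptide tunnel, the region over the start (chr11:68901214-68901935) had 25.5, 26.7, 20.6 and 22.4 CPM at day 7 and 16.7, 18.95, 19.2 and 16.01 CPM at day 21, without overlap, and fell by 0.42 (log2, edgeR adjusted p = 0.00107). The region at its far end (chr11:68904785-68905066) had 1.74, 1.81, 1.77 and 2.30 CPM and 3.09, 4.39, 3.18 and 2.099 CPM and rose by 0.71 (log2, adjusted p = 0.0470). At that far end 1 library of day 21 reached into the range of day 7.

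At Rpl34 the region over the start (chr3:130729912-130730684) had 51.6, 53.8, 62.5 and 55.9 CPM at day 7 and 51.9, 47.2, 43.6 and 48.4 CPM at day 21 and fell by 0.23 (log2, edgeR adjusted p = 0.0144). A smaller neighbour inside the same window (chr3:130729411-130729683) had 3.90, 5.21, 3.96 and 5.72 CPM and 6.40, 8.96, 6.54 and 7.47 CPM, without overlap, and rose by 0.64 (adjusted p = 0.00569). The sum of both, in which the opposite changes are added together, did not pass (log2 fold change -0.14, adjusted p = 0.0904).

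Rpsa, known also as the laminin receptor, had 56.2, 56.6, 59.95 and 53.8 CPM at its start window at day 7 and 47.7, 52.7, 51.6 and 46.8 CPM at day 21, without overlap, and fell by 0.19 (log2, edgeR adjusted p = 0.0198). Its far end had 17.4, 18.1, 18.97 and 19.3 CPM and 22.4, 20.7, 22.8 and 21.2 CPM with every library of day 21 above day 7, but did not pass (log2 fold change 0.24, adjusted p = 0.0770). Rps9 had 21.1, 24.6, 20.8 and 19.6 CPM at its start window and then 16.3, 18.1, 16.6 and 14.4 CPM, and fell by 0.40 (adjusted p = 0.00152), while its far end had a log2 fold change of 0.18 (adjusted p = 0.196). Rps18 had 27.1, 37.6, 30.3 and 26.8 CPM and 24.1, 23.9, 26.6 and 22.9 CPM at its start window and fell by 0.31 (adjusted p = 0.00480). The region there is also counted for Vps52. At a far end that Rps18 shares with B3galt4, the log2 fold change was 0.25 (adjusted p = 0.113). Neither Rpsa, Rps9 nor Rps18 passed at gene ends, where both sides are summed.

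Rps29, for which the table gives no strand, had a region at chr12:69158690-69159418 with 53.1, 54.4, 51.7 and 47.04 CPM at day 7 and 42.5, 44.2, 47.6 and 41.6 CPM at day 21, which fell by 0.23 (log2, edgeR adjusted p = 0.0162). A second region at chr12:69157449-69157814 had 8.56, 8.82, 13.8 and 9.76 CPM and 13.8, 16, 12.1 and 14.1 CPM and rose by 0.45 (adjusted p = 0.00985). Again the sum did not pass (adjusted p = 0.204).

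In the 2 members that were higher at gene ends, the region that passed lay away from the listed start or in a gene with no placed start. Rpl4, whose long loop reaches into the peptide tunnel, had 33.9, 32.3, 31.96 and 32.5 CPM at day 7 and 37.3, 40.4, 41.4 and 35.2 CPM at day 21, without overlap (log2 fold change 0.24, SE 0.0751, edgeR adjusted p = 0.0121). At its start window the log2 fold change was -0.06 (adjusted p = 0.725), and the gain lay in the region chr9:64178727-64179719 at the far end, which also overlaps the end of Snapc5 and rose by 0.39 (adjusted p = 0.00116). The gene-end call was lost without replicate 2 (adjusted p = 0.0565) or replicate 3 (0.0615) of day 21. Counts there cannot be divided between Rpl4 and Snapc5.

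Rps14, whose human counterpart lies in the segment lost in the 5q- syndrome, had 60.4, 57.04, 61.97 and 59.8 CPM at day 7 and 67.5, 70.99, 70.7 and 68.3 CPM at day 21, without overlap (log2 fold change 0.21, SE 0.0599, edgeR adjusted p = 0.00452). Of its 2 regions, the one that starts at 60779209 on chromosome 18 had 11.96, 15.9, 14.6 and 14.2 CPM and 21.1, 21.6, 19.1 and 19.4 CPM and rose by 0.52 (adjusted p = 0.000177), and the other, which starts at 60774171, did not pass (log2 fold change 0.10, adjusted p = 0.328). With windows of 500 bp, Rps14 did not pass (log2 fold change 0.10, adjusted p = 0.244).

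Rpl31, at the exit of the peptide tunnel, had 2.74, 3.93, 2.36 and 4.10 CPM at its far end at day 7 and 6.96, 6.68, 6.72 and 6.01 CPM at day 21. All 4 libraries of day 21 lay above those of day 7, and the far end rose by 0.99 (log2, SE 0.193, edgeR adjusted p = 8.5e-05) while at its start the log2 fold change was 0.03 (adjusted p = 0.771). Of the 2 far ends that fell, that of Rps15a was a weak region with 1.99, 2.55, 1.52 and 0.870 CPM at day 7 and 0.352, 0.963, 0.648 and 0.712 CPM at day 21 (fell by 1.31, SE 0.414, adjusted p = 0.0176). Leaving out single libraries lost the call of Rps15a in 3 cases (without replicate 1 or 2 of day 7, or 1 of day 21; highest adjusted p = 0.091).

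Rpl17, Rps2 and Rps25 had no region at an annotated end. For some members the annotated end of the gene lies away from the start listed for their main transcript. Windows at every listed start, an alternative chosen after this was seen, gave 25 lower of 55 members and 0 higher (edgeR, 45.5%, against 26.7% lower and 6.2% higher of 10724 genes). In these windows 30 of the 55 members had an unadjusted p under 0.05, beside 4594 of the 10724 genes. Rps2, of the small subunit near the mRNA entry, had 38.1, 41.9, 41.5 and 36.97 CPM at day 7 and 37.1, 34.2, 39.1 and 35.3 CPM at day 21 there and did not pass (log2 fold change -0.12, edgeR adjusted p = 0.214). Rpl22, a protein that binds viral and cellular RNAs besides rRNA, had 6.56, 5.74, 5.23 and 5.59 CPM and 6.19, 7.40, 6.37 and 7.15 CPM at gene ends but 57.98, 55.1, 53.6 and 50.3 CPM and 52.1, 52.5, 52.7 and 49.9 CPM at its listed starts, and passed at neither (adjusted p = 0.295 and 0.457).

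Rpl19 and Rpl18 did not pass at gene ends or start windows and were lower in the windows at every listed start. Rpl19 had 12.5, 16.5, 16.7 and 14.7 CPM at day 7 and 10.2, 11.5, 14.5 and 10.5 CPM at day 21 and fell by 0.37 (log2, SE 0.120, edgeR adjusted p = 0.0140). Rpl18 had 33.4, 30.1, 31.5 and 32.7 CPM and 25.03, 27.1, 27.9 and 26.1 CPM, without overlap, and fell by 0.27 (log2, SE 0.0800, adjusted p = 0.00727). At gene ends their log2 fold changes were -0.13 and -0.01 (adjusted p = 0.511 and 0.952).

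Distal regions, those outside all gene-end windows with the member's end as the nearest within 50 kb, gave other counts than the starts. Of 48 members with distal counts tested, 8 were higher and 3 lower (16.7% and 6.25%, against 18.3% and 11.4% of 14486 genes), with a median log2 fold change of -0.004 against 0.04. Among the higher ones were Rpl4, Rpl5, Rpl11, Rpl31, Rplp1, Rps12 and Rps14, and the lower ones Rpl19, Rpl21 and Rpl34. For 3 members, Rpl19, Rpl22 and Rps2, a region over the listed start lies outside the gene-end windows and counts as distal, and for Rpl22 and Rps2 it is the whole distal sum. Being nearest to a gene's end does not show that a region acts on that gene.

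Rpl31 had the smallest p: its distal sum was 73.4, 73.4, 76.1 and 71.1 CPM at day 7 and 96.97, 96.7, 105 and 101 CPM at day 21, far apart between days (log2 fold change 0.45, SE 0.0560, edgeR adjusted p = 1.95e-09). The distal sum of Rpl4 was 1 region that lies inside the gene, 1.19 kb from its nearest end. That region had 4.49, 2.13, 3.96 and 6.28 CPM and 7.59, 10.1, 8.02 and 8.22 CPM, without overlap (log2 fold change 0.95, adjusted p = 2.31e-05). Rpl11 had 60.97, 56.6, 54.6 and 55.7 CPM and 60.6, 69.4, 74.3 and 73.8 CPM, with 1 library of day 21 inside the range of day 7 (log2 fold change 0.29, adjusted p = 0.000272). Rplp1 had 48.5, 58.1, 47.7 and 53.6 CPM and 57.7, 70.8, 64.9 and 61.9 CPM, where the lowest library of day 21 was just below the highest of day 7 (log2 fold change 0.30, adjusted p = 0.000371). For Rpl5 and Rps12 the distal sum rose while the gene end fell. That of Rpl5 had 55.6, 58.6, 57.1 and 53.3 CPM and 60.2, 59.2, 67.8 and 65.7 CPM, without overlap (log2 fold change 0.18, adjusted p = 0.0286). That of Rps12 was 1 weak region with 0.332, 1.28, 0.506 and 0.497 CPM and 1.27, 1.26, 1.77 and 1.49 CPM, and replicate 2 of day 7 lay in the range of day 21 (log2 fold change 1.22, SE 0.422, adjusted p = 0.0212).

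Genes that work with the ribosome were taken from lists chosen, like the members, with earlier results known, and their counts at gene ends stand beside the same background of 24.6% lower and 6.71% higher. Of ribosomal proteins that the name rule leaves out, 2 of 4 were lower: Rps3a1 (55.2, 51.7, 53.5 and 55.6 CPM at day 7 and 45.1, 50.8, 47.6 and 43.3 CPM at day 21, fell by 0.22, edgeR adjusted p = 0.00954) and Fau (fell by 0.24, adjusted p = 0.0485), while Rack1 (log2 fold change -0.12, adjusted p = 0.285) did not pass. Of 6 tested paralogs with like names, 1 was lower, Rpl7l1 (fell by 0.21, adjusted p = 0.0274), and Rpl22l1 did not pass (log2 fold change -0.13, adjusted p = 0.108).

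Of 9 elongation factors tested, 4 were lower and 0 higher (edgeR, median -0.11). An unadjusted p under 0.05 was found for 4 of the 9, beside 5610 of all 13572 gene ends. Eef1a1, which carries tRNA to the ribosome, had 72.6, 76.3, 77.8 and 74.6 CPM at day 7 and 56.96, 59.4, 61.01 and 59.95 CPM at day 21, without overlap, and fell by 0.34 (log2, edgeR adjusted p = 7.56e-06), and Eef1d, part of its exchange factor, fell by 0.33 (adjusted p = 9.79e-05). Of 39 initiation factors, 8 were lower and 1 higher (median -0.10), with Eif3d (fell by 0.47, adjusted p = 0.000126) and the poly(A) binding protein gene Pabpc1 (fell by 0.30, adjusted p = 4.77e-05) at the smallest p. Of 88 ribosome biogenesis factors, 27 were lower and 2 higher (median -0.10), led by the nucleolar proteins Npm1 (fell by 0.42, adjusted p = 8.76e-06) and Gnl3 (fell by 0.45, adjusted p = 9.17e-06).

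Of 32 genes of the RNA polymerase I and III machinery, which make rRNA and tRNA, 5 were lower and 0 higher (edgeR, median -0.10). Among the lower ones was Gtf3a, the 5S rRNA gene factor (fell by 0.34, edgeR adjusted p = 0.00161). An unadjusted p under 0.05 was found for 11 of the 32, beside 5610 of all 13572 gene ends. Of 31 genes of mTORC1 and translation control, 9 were lower and 1 higher (median -0.10). Tsc1, an inhibitor of mTORC1, had 23.8, 29.4, 26.1 and 25.7 CPM at day 7 and 16.6, 16.9, 17.6 and 14.5 CPM at day 21, far apart, and fell by 0.68 (log2, SE 0.0950, adjusted p = 7.07e-08). Mlst8, a subunit of mTORC1 itself, fell by 0.52 (SE 0.0919, adjusted p = 1.22e-05), the same direction as the inhibitor. Accessibility was measured here, and not the amount of any mRNA or protein.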

How the data were processed

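The authors deposited raw counts for 128057 genomic regions in 8 ATAC-seq libraries, 1 column per library. The submitters' processing notes name the builds mm10 and GRCm38 and the tools bedtools, MACS2 2.1.0.20150603, SAMtools, Picard 1.65 and cutadapt 1.9. What aligned and filtered the reads, whether positions were shifted for the transposase, what was counted (reads, fragments or insertions) and whether coordinates count from 0 or 1 are not given in the sources used here. A shift would move a count by a few bases. Days and replicate numbers were read from the sample titles. Members, gene lists and tests were chosen with earlier results of these data known.

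Genes came from a RefSeq table of GRCm38.p6, the assembly of mm10, which gives no strand. Strand and start came from a RefSeq promoter table, by gene identifier. That promoter table listed 17492 genes, and 20 of the members have no start and far end here for that reason. Counts of all regions overlapping 1000 bp around either end were summed per gene, and a region near several genes counted for each. The test was edgeR 4.0.16 (R 4.3.3; filterByExpr, TMM factors of all regions, 0.978 to 1.01, glmQLFit and glmQLFTest with day as the only term), with Benjamini-Hochberg adjustment over all genes and a threshold of 0.05. The standard error is the log2 fold change divided by the square root of F. CPM are on TMM-scaled totals. The code was tested on simulated data.

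Named members were those called with the smallest p (up to 10 in each direction), the 5 highest and 5 lowest summed levels, up to 4 at far ends and 4 in distal regions, those without a region, a list by name, and 2 genes from each other list. Rpl14, Rpl15, Rpl18, Rpl26, Rpl34, Rps9, Rps18 and Rps29, and genes listed only by symbol, were chosen after their values were seen. Alternatives were other scalings (DESeq2 1.42.0 size factors, trended offsets, total counts), no filter, DESeq2 and limma-voom (limma 3.58.1), windows of 500 and 2000 bp, regions of 1 gene only, counts thinned to the shallowest library, the replicate number as a block, and leaving out each library. Same-numbered libraries of the days did not deviate together (r from -0.015 to 0.047), so the numbers were not taken as pairs. Coordinates are printed as deposited. Some genes are counted in the totals and medians but are not reported here by name.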

Additional observations from a re-analysis of the deposited data

Results flagged for a closer look

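In 4 of 80 groups of 4 libraries, 1 library stood apart from the other 3 by Dixon's 95% criterion, a rule that chance meets in about 1 in 20 groups. Rps20 had 36.64 CPM at its gene ends in replicate 2 of day 21, against 29.56 to 30.59 CPM in the others of that day. Rps27a had 33.39 CPM in the same library, against 29.65 to 30.24 CPM. Rpl5 had 32.81 CPM in replicate 1 of day 7, against 35.23 to 35.27 CPM. The share of all counts at the members' gene ends was 0.3055% in replicate 2 of day 7, the shallowest, against 0.294% to 0.2957% in the others of that day. The causes were not tested.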

How the results depend on the processing

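With trended offsets, 10 members were lower and 6 higher at gene ends, 10 lower and 3 higher at start windows, and 13.2% of gene ends of like level were lower. With regions of 1 gene only, and with windows of 500 bp, 1 member was higher at gene ends. The share ratio was 0.976 when taken over all gene ends. Leaving out single libraries gave 14 to 28 members lower and 1 to 2 higher at gene ends, 14 to 25 lower at start windows, 0 to 2 lower at far ends, and 18 to 34 of the members' single regions lower. Shares over all genes or regions are not given here for regions of 1 gene only, windows of 500 bp or single libraries left out. These counts therefore cannot be read as particular to the members. The causes of these shifts were not tested. All other counts over the members stayed within 1.5 times under the alternatives run, and none of the named fold changes that passed the test turned its sign. DESeq2 called 22 members lower at gene ends, limma-voom 25, and both called the same 2 higher. Their shares over all gene ends are not given here.

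With the replicate number as a block, 26 members were lower and 2 higher at gene ends and 25 lower at start windows. Shares over all genes in this fit are not given here. All 24 lower members were among the 26, and Rpl11 (adjusted p = 0.0473) and Rpl37 (0.0198) were added; the labels give no pairing beyond the number. Day 7 held the 3 shallowest libraries, and fewer counts limit what regions of about 1 CPM can show.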

Other observations

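Of 161 distal regions nearest to a member's end, 3 fell by more than 1.5 on the log2 scale. These 3 were chosen after their values were seen. Among the 161, a region near Rpl3 and another near Rps3 were not tested and have no fold change. The share of all distal regions that fell as far is not given here. The count therefore cannot be read as particular to the members. The region chr15:80060825-80061559, 16.6 kb from the end of Rpl3, had 8.72, 13.1, 9.61 and 9.69 CPM at day 7 and 4.78, 1.14, 2.59 and 1.14 CPM at day 21, without overlap (log2 fold change -2.17, SE 0.228, edgeR adjusted p = 2.71e-11 over all regions). A weak region at chr10:128610567-128610769, 13.9 kb from the end of Rps26, had 1.83, 1.49, 1.18 and 0.994 CPM at day 7 and 0.0703, 0, 0.118 and 0.0712 CPM at day 21 (edgeR adjusted p = 1.23e-06). A region at chr11:29560612-29560796, 12.7 kb from the end of Rps27a, had 0.831, 1.28, 1.27 and 1.18 CPM and then 0.563, 0.241, 0.295 and 0.32 CPM (log2 fold change -1.69, SE 0.506, edgeR adjusted p = 0.0118). The distal sums of Rpl3, Rps26 and Rps27a did not pass the test. The largest gain among single distal regions with more than 10 CPM at day 7 was at chr1:39417748-39418430, 46.2 kb from Rpl31, with 12.7, 10.6, 16.1 and 11.7 CPM at day 7 and 23.2, 21.8, 24.2 and 22.1 CPM at day 21 (log2 fold change 0.83, SE 0.108, edgeR adjusted p = 1.62e-08). Which gene these regions act on was not tested.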
